A study of Mus musculus with 14 samples.

Results

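BCOR binding at embryonic day 14 (E14) and on the day of birth (P0) was compared in mouse retina through the peaks that CUT&RUN gave at the 2 stages. The members are all BCOR peaks on chromosomes 1 to 19 in 3 libraries, 24812 of the 105509 peaks in the 10 CUT&RUN lists of the series: 5292 in P0 replicate 1, 8784 in P0 replicate 2 and 10736 in the single E14 library. A P0 region is a stretch of overlapping peaks that holds a peak of each P0 replicate, and 4634 such regions were found. A site is called kept where an E14 peak and a P0 region overlap by at least 1 base, gained where a P0 region overlaps no E14 peak, and lost where an E14 peak overlaps no peak of either P0 library.

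The groups were wild-type CD1 retina at P0 and wild-type CD1 retina at E14, with no treatment named for the CUT&RUN libraries. Otx2 libraries of the same stages (2 at P0, 1 at E14) and BCOR libraries of the adult (2) are used below as separate readouts. The series also holds adult Otx2 libraries, and RNA libraries of sorted retinal cells after knockdown of Bcor, which were not used for the comparison of stages. Whole retina was the labelled tissue, and peak lists hold no marker with which it could be checked. A peak that is present at one stage only cannot be told apart, in such tissue, from a change in the share of the cells that carry it. The labels do not say how many animals each library stands for, so the spread between the P0 replicates may be technical.

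BCOR is a corepressor that does not bind DNA by itself. It was found as a partner of the repressor BCL6, and it is a subunit of a variant Polycomb complex with PCGF1 and KDM2B, which places ubiquitin on histone H2A and is brought to unmethylated CpG islands. At E14 the mouse retina consists largely of dividing progenitors that give rise to ganglion cells, cones, horizontal cells and amacrine cells, and around birth rods are the main cell type being born. Otx2 is the homeobox factor that specifies photoreceptors and bipolar cells. In CUT&RUN an antibody to the protein directs a nuclease to chromatin, and the fragments cut free are sequenced.

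Most BCOR regions of P0 were already present at E14, while lost peaks were about as many as kept peaks in the whole E14 list and fewer among equally many top-ranked peaks. Of the 4634 P0 regions, 4041 were kept, 87.2% (95% Wilson interval 86.2 to 88.1%), and 593 were gained, 12.8% (11.9 to 13.8%). Of the 10736 E14 peaks, 4084 were kept, 38.0% (37.1 to 39.0%), and 4027 were lost, 37.5% (36.6 to 38.4%). The remaining E14 peaks overlapped P0 peaks that were not shared by the P0 replicates: 2389 met a peak of replicate 2 alone (22.3%), 220 a peak of replicate 1 alone (2.05%), and 16 met separate peaks of both. With 1 library at E14 the stages could not be compared by a significance test, and the Wilson intervals cover the counting of peaks only, not the spread between animals.

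**Figure D1:**
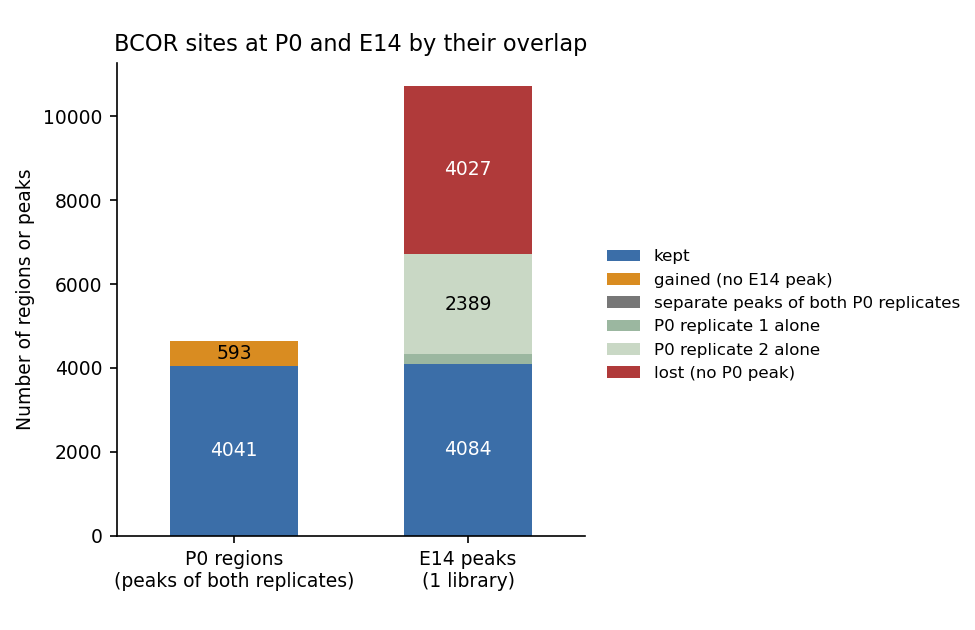
BCOR sites at P0 (left bar, regions with a peak of both replicates) and at E14 (right bar, peaks of 1 library); bar height is the number of sites and colours show the class of overlap. Kept sites make up most of the P0 bar (4041 of 4634), whereas the E14 bar holds 4084 kept and 4027 lost peaks.

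The P0 replicates set the scale for these shares, since they differ from each other as well. Of the P0 replicate 1 peaks, 89.2% overlapped a peak of P0 replicate 2 (88.3 to 90.0%) and 81.5% overlapped an E14 peak (80.5 to 82.6%). Of the longer P0 replicate 2 list, 73.5% overlapped an E14 peak (72.6 to 74.4%) and 52.9% a peak of P0 replicate 1 (51.8 to 53.9%), so this list found more of its peaks in the E14 library than in the other P0 library. Peaks that lay outside the P0 regions, because only 1 replicate had them, were also often present at E14: 2420 of 4140 such peaks of replicate 2 (58.5%) and 243 of 573 of replicate 1 (42.4%). The lists had different cut-offs, with a largest q-value of 0.0496 and 0.0481 in the P0 lists and 0.0999 in the E14 list, and their read depth is unknown. The peak names of both E14 lists also have another form than those of the P0 lists, and whether E14 was called with other settings is not known. Their lengths are therefore no measure of how much BCOR was bound. The share lost was 60.1% when P0 replicate 1 alone stood for P0 and 39.6% when replicate 2 alone did.

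To take list length out of the comparison, equally many top-ranked peaks of each list were compared. At 5292 peaks each, ranked by q-value, 61.8% of the P0 replicate 1 peaks (60.4 to 63.1%) and 66.9% of the P0 replicate 2 peaks (65.6 to 68.1%) overlapped a top E14 peak. The P0 replicates shared 74.1% with each other at this number (72.9 to 75.3%). In these shortened lists 25.3% of the P0 regions were gained, against 12.8% in the whole lists, and 54.3% of the E14 peaks were kept and 26.2% lost, against 38.0 and 37.5%. The gap widened towards the top of the lists. Among the best 1000 of each list by q-value, E14 held 53.9% of the P0 replicate 1 peaks and 57.6% of the P0 replicate 2 peaks, against 77.9% between the P0 replicates. Ranked by fold (the enrichment over background that the authors' peak caller gave at the summit), the best 1000 gave 33.7 and 36.8% for P0 replicates 1 and 2 in E14, against 71.2% between the P0 replicates. The intervals of each stage pair lay below that of the P0 replicates at every number of peaks from 250 to 5292, under both rankings.

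**Figure D2:**
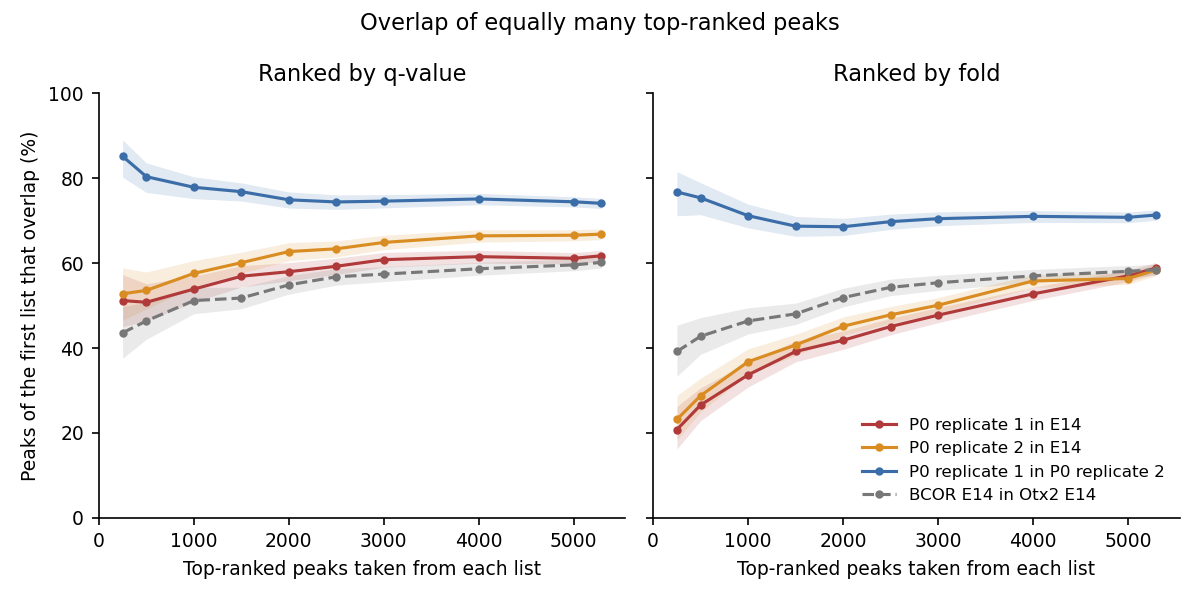
Percentage of peaks of the first-named list that overlap a peak of the second, for equal numbers of top-ranked peaks ranked by q-value (left) or by fold (right); shading is the 95% Wilson interval. The P0 replicates share 74.1% (q-value) and 71.4% (fold) at 5292 peaks, above both pairs of P0 with E14, and the pairs of P0 with E14 fall to 20.8 and 23.2% among the top 250 by fold.

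Few of the top P0 peaks had no E14 peak at all. Of the 1000 P0 replicate 1 peaks with the highest fold, 948 overlapped some E14 peak of any rank, and of the 1000 of P0 replicate 2, 961 did. With a peak of the other P0 replicate, 997 and 978 of these peaks overlapped. All of the 100 highest-fold peaks of each P0 list lay on an E14 peak. In the other direction, of the 1000 E14 peaks with the highest fold 812 were kept and 83 were lost. The 100 highest-fold E14 peaks, with folds of 13.4 and above, were split, with 45 kept and 42 lost, and an Otx2 peak of the E14 library lay on 44 of the 45 kept and on all 42 lost ones.

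The order of the kept sites was only partly shared between the stages. Over the 4041 kept P0 regions, the Spearman correlation of the ranks was 0.56 between P0 replicate 1 and E14, 0.64 between P0 replicate 2 and E14 and 0.76 between the P0 replicates. For the folds it was 0.26 and 0.34 between P0 replicates 1 and 2 and E14, and 0.72 between the P0 replicates. These correlations describe regions that share libraries and genome, so no p-value is given. When the kept regions were cut into 3 groups of 1347 by rank, 892 of the best P0 group (66.2%) were also in the best E14 group and 109 (8.09%) were in the weakest E14 group. The summits at kept sites lie close together by the overlap that defines them. The median distance between summits was 55 bases from P0 replicate 1 to E14 and 51 bases from P0 replicate 2 to E14, against 43 bases between the P0 replicates. Within 100 bases of each other were 70.0, 73.2 and 77.5% of these summit pairs.

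Most lost and gained sites lay in the weaker part of their list, apart from the lost peaks among the highest folds of E14 given above. The median fold at P0 was 5.17 in replicate 1 and 6.23 in replicate 2 for gained regions, and 5.66 and 7.79 for kept regions. The median width was 442 bases for gained and 558 bases for kept regions. At E14 the median fold was 4.51 for lost peaks (quartiles 4.01 and 5.34) and 6.76 for kept peaks (5.31 and 8.55), and the median width was 310 and 533 bases.

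Cut into deciles by rank (10 groups of equal size), the P0 regions showed 1 gained region among the 463 best (0.216%), 50 of 464 in the fifth decile (10.8%) and 143 of 464 in the weakest decile (30.8%). Among E14 peaks the lost share was 7.08% of the best decile (76 of 1073), 29.7% of the fifth decile and 75.5% of the weakest decile (811 of 1074). The best and the second decile did not differ beyond counting error, at 7.08 and 6.70% lost, while the kept share fell from decile to decile, starting at 85.5% and reaching 9.68%. A similar slope separated libraries of 1 stage: 86.0% of the weakest decile of P0 replicate 2 peaks had no peak in P0 replicate 1, against 0.911% of its best decile, and for P0 replicate 1 peaks in P0 replicate 2 these shares were 34.5 and 0%. In the best decile the E14 library stood apart from this slope, since the 7.08% lost there have no peak in either P0 list (interval 5.70 to 8.78%).

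**Figure D3:**
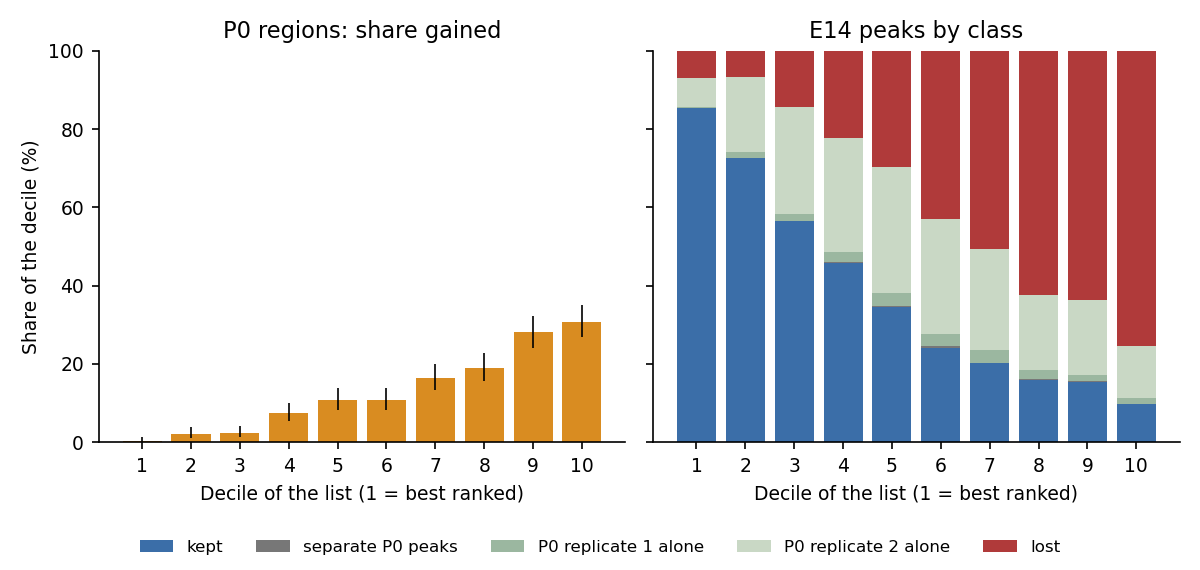
Share of gained sites in deciles of the P0 regions (left, bars with 95% Wilson intervals, ordered by the worse of the 2 replicate ranks) and classes of E14 peaks in deciles of the E14 list (right, ordered by q-value). Gained sites grow to 30.8% in the weakest P0 decile, and lost sites to 75.5% in the weakest E14 decile.

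The median distance from a gained region to the nearest E14 peak was 20.5 kb, with 90 of 593 within 1 kb (15.2%) and 235 within 10 kb (39.6%). Lost E14 peaks lay farther from P0 peaks, with a median of 67.1 kb, and 234 of 4027 were within 1 kb (5.81%). Unmatched peaks of the P0 replicates gave distances of the same order. P0 replicate 1 peaks with no overlap in replicate 2 had a median of 29.9 kb and 22.7% within 1 kb, and P0 replicate 2 peaks with no overlap in replicate 1 had a median of 82.3 kb and 7.39% within 1 kb. Longer target lists give shorter distances, and the targets differed. Gained regions were set against the 10736 E14 peaks, and lost peaks against both P0 lists together (5292 and 8784 peaks, many of them overlapping). The part of list length in these distances was not tested.

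**Figure D4:**
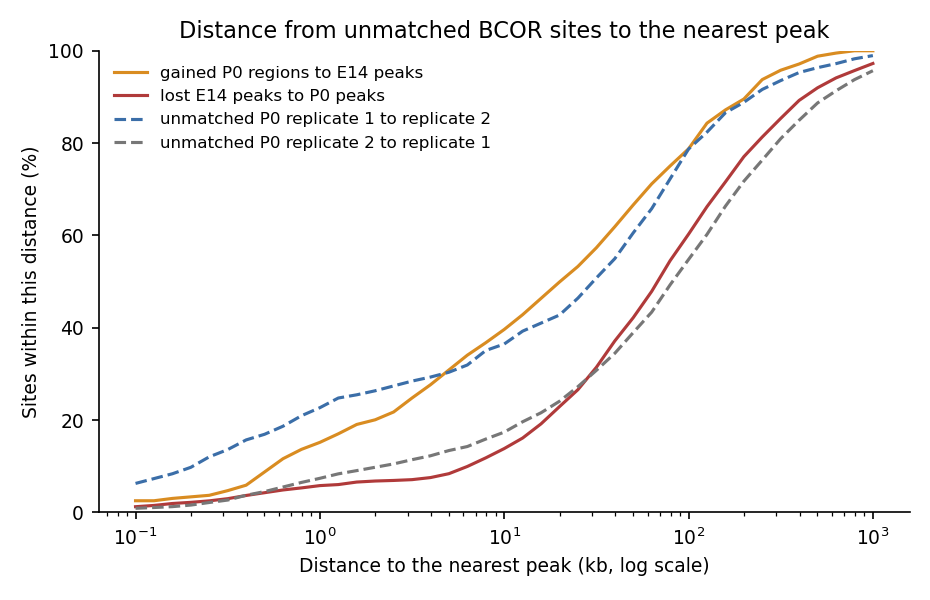
Cumulative percentage of unmatched BCOR sites whose nearest peak lies within a given distance (kb, log axis). Solid lines compare stages and dashed lines compare the P0 replicates with each other; gained P0 regions (median 20.5 kb) lie closer to E14 peaks than lost E14 peaks (median 67.1 kb) lie to P0 peaks.

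Kept sites carried Otx2 more often than gained or lost sites. At P0, an Otx2 region (a peak of each Otx2 replicate) lay on 2847 of 4041 kept regions, 70.5% (69.0 to 71.8%), and on 273 of 593 gained regions, 46.0% (42.1 to 50.1%). At E14, an Otx2 peak lay on 2904 of 4084 kept peaks, 71.1% (69.7 to 72.5%), and on 1186 of 4027 lost peaks, 29.5% (28.1 to 30.9%). Counted from the Otx2 side, 21.3% of the E14 BCOR peaks with an Otx2 E14 peak were lost (1186 of 5557), against 54.9% of those without (2841 of 5179).

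Gained regions had Otx2 less often than kept regions in the lists of each stage, but at P0 not when split by Otx2 at E14. The Otx2 lists differ in length, with 18280 regions at P0 and 8497 peaks at E14, so shares are not read across the stages. Gained regions were also chosen for the absence of a peak in the E14 BCOR list, which shares many peaks with the Otx2 list of E14, so their Otx2 share at E14 is not independent of that choice. An Otx2 peak of E14 lay on 127 of 593 gained regions (21.4%) and on 2902 of 4041 kept P0 regions (71.8%). Among regions with an Otx2 E14 peak, an Otx2 P0 region lay on 85.0% of the gained (77.8 to 90.2%) and 85.8% of the kept (84.5 to 87.0%). Among those without one, it lay on 35.4% of the gained (31.2 to 39.9%) and 31.4% of the kept (28.8 to 34.2%). At equal Otx2 status at E14 the intervals of gained and kept regions thus overlapped. In 165 gained regions (27.8%) Otx2 was present at P0 and not at E14, against 358 kept regions (8.86%). A further 252 gained regions (42.5%) had no Otx2 peak in any list of either stage, against 585 kept regions (14.5%). Of the lost E14 peaks, 1328 (33.0%) had an Otx2 region at P0, so at these places Otx2 was listed at birth where BCOR was not, and 1880 (46.7%) had no Otx2 peak in any list of either stage.

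The link with Otx2 followed the strength of the BCOR peak, and the difference between kept and lost was compared at equal rank for this reason. In the fifth decile of the E14 list, Otx2 regions of P0 lay on 57.8% of kept and 39.8% of lost peaks, and Otx2 peaks of E14 on 60.5% of kept and 43.6% of lost peaks. In the weakest decile these shares were 39.4 and 24.4% for Otx2 at P0, and 26.9 and 12.6% for Otx2 at E14. The best decile departed from this. There, 73 of 76 lost peaks had an Otx2 E14 peak, 96.1% (89.0 to 98.6%), as did 93.8% of kept peaks (92.0 to 95.2%), while Otx2 regions of P0 lay on 35.5% of the lost (25.7 to 46.7%) and 86.6% of the kept peaks (84.2 to 88.6%). For Otx2 at E14 the intervals also overlapped in the third decile, with 68.0% of lost (60.2 to 74.8%) and 74.4% of kept peaks (70.8 to 77.7%). In the eighth they overlapped narrowly, with 25.3% of lost (22.1 to 28.7%) and 35.1% of kept peaks (28.3 to 42.5%). By quintiles of the P0 regions (5 groups of equal size), Otx2 at P0 lay on 62.0% of the gained (52.2 to 70.9%) and 69.9% of the kept regions (66.7 to 72.9%) in the middle quintile. The intervals also overlapped in the best quintile (8 of 11 gained, 72.7%, and 77.5% of kept) and in the second (64.4 and 78.7%). They did not overlap in the fourth (47.0 and 67.1%) and in the weakest (35.5 and 54.1%).

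**Figure D5:**
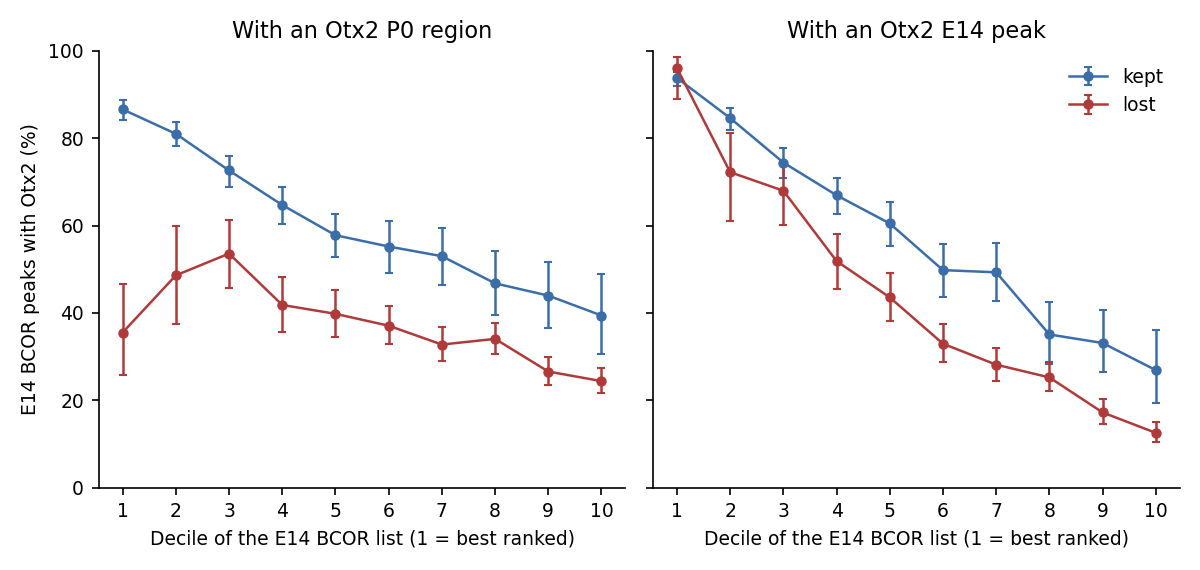
Share of kept and lost E14 BCOR peaks with an Otx2 region of P0 (left) or an Otx2 peak of E14 (right), in deciles of the E14 BCOR list; error bars are 95% Wilson intervals. In the best decile lost peaks have Otx2 at E14 as often as kept peaks do (96.1 and 93.8%), but Otx2 at P0 less often (35.5 and 86.6%).

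At equal numbers of top peaks, the E14 libraries of BCOR and Otx2 shared more peaks than the P0 libraries of these proteins did. Among equally many top peaks (5292 by q-value), BCOR and Otx2 shared 32.6 and 35.8% at P0 in replicates 1 and 2, and 60.2% at E14 (58.9 to 61.5%). This number is a smaller part of the Otx2 P0 lists (21759 and 24884 peaks) than of the Otx2 E14 list (8497), so list length enters the contrast. In the whole lists the order was reversed, with Otx2 on a larger part of the P0 BCOR regions than of the E14 BCOR peaks. There, Otx2 P0 regions lay on 2847 of 4041 kept and 273 of 593 gained P0 regions (70.5 and 46.0%). Otx2 E14 peaks lay on 5557 of the 10736 E14 BCOR peaks. List length enters this order as well. The BCOR list of E14 shared about as many of its top peaks with Otx2 of E14 (60.2%) as with BCOR P0 replicate 1 (61.2%). It shared more with BCOR P0 replicate 2 (66.9%). In the best 1000 the order depended on the ranking. By q-value BCOR of E14 shared 51.2% with Otx2 of E14, against 53.9 and 57.6% of the P0 replicate peaks found in it, and by fold it shared 46.4%, against 33.7 and 36.8%. For Otx2 itself, 51.7 and 50.1% of the top 5292 peaks of P0 replicates 1 and 2 overlapped a top E14 peak, against 84.8% between the Otx2 P0 replicates. Whether the strongest E14 peaks are background common to both E14 libraries was not tested, nor was the part such peaks play in the lost and kept classes.

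Kept sites held BCOR of the adult retina more often than gained or lost sites did. An adult BCOR region (a peak of each adult replicate, 1035 in all) lay on 806 of 4041 kept P0 regions, 19.9% (18.7 to 21.2%), on 13 of 593 gained regions, 2.19% (1.29 to 3.71%), and on 17 of 4027 lost E14 peaks, 0.422% (0.264 to 0.675%). The share grew with strength, and 441 of 915 kept regions in the best quintile of P0 held an adult region (48.2%), against 30 of 654 in the weakest quintile (4.59%). At equal rank, 3.05% of gained (1.31 to 6.94%) and 8.52% of kept regions (6.74 to 10.7%) in the fourth quintile held one. These intervals overlapped, as did those of the best quintile (2 of 11 gained, 441 of 915 kept) and the weakest (4 of 273, 30 of 654). They did not overlap in the second (1 of 45 gained, 176 of 882 kept) and in the third (1 of 100, 94 of 827). The gained share was the lower one in each quintile.

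The best-ranked lost and kept peaks of E14 belonged to a small set with extreme q-values. In the E14 list 54 peaks had a −log10 q of 100 or more, and 25 of them were kept, 20 lost and 9 matched by P0 replicate 2 alone. An Otx2 E14 peak lay on 52 of the 54, with 23 of the 25 kept and all 20 lost ones. An Otx2 P0 region lay on 32 of the 54, with 19 of the 25 kept and 5 of the 20 lost ones. On chromosome 9, 19 of the 54 lay at the start of the listed sequence (chr9:3000041-3038261), where the P0 lists held 23 and 20 peaks. Folds there were low in the P0 lists (1.52 to 2.67 in replicate 1 and 1.25 to 2.95 in replicate 2) and 1.5 to 7.78 in the E14 list. Without these 54 peaks and the P0 peaks on them, 38.0% of the E14 peaks were kept and 12.9% of the P0 regions gained.

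The kept site with the best rank in every BCOR list was chr2:98506751-98507437 (mm9; all positions are on this build, counted from 1). Its fold was 2.49 and 2.70 in P0 replicates 1 and 2 and 19.5 at E14, with a −log10 q of 7848, 8940 and 44689. It ranked 1 in all 10 lists of the series, those of Otx2 included, so it does not separate BCOR from Otx2. The other 4 best kept sites lay in the chromosome 9 stretch above, at chr9:3023368-3024835, chr9:3025031-3026023, chr9:3006280-3008055 and chr9:3000105-3003736. They too had peaks in all 10 lists.

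Kept sites outside that set had high folds at both stages, and 5 were picked by the same ranking after these values had been seen. At chr10:90545184-90545975 the fold was 34.2 and 45.7 in P0 replicates 1 and 2 and 15.7 at E14. BCOR was listed in both adult replicates too, at 13.1 and 19.7. Otx2 was listed there at 13.7 and 12.6 at P0 and 12.2 at E14. BCOR at chr2:84554864-84556292 had a fold of 23.4 and 50.3 in P0 replicates 1 and 2 and 13.0 at E14, with Otx2 at 27.4 and 23.4 at P0 and 10.1 at E14. Both of these sites carried both proteins at both stages.

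At the other 3 sites the Otx2 folds of P0 lay between 2.69 and 7.16. At chr12:4913867-4914819 BCOR had folds of 23.1 and 36.4 in P0 replicates 1 and 2 and 15.5 at E14, while Otx2 had 3.47 and 2.69 at P0 and 4.68 at E14. In the adult BCOR had folds of 12 and 19.4 and Otx2 had no peak there. The site chr3:30992354-30994034 had BCOR folds of 11.3 and 18.3 in the P0 replicates and 11.7 at E14. Otx2 had 4.25 and 4.85 there at P0 and 7.75 at E14, and BCOR had a peak in adult replicate 1 (4.06) and none in adult replicate 2. At chr9:44041321-44042438 BCOR had 28.5 and 44.9 in the P0 replicates and 13.7 at E14. Otx2 had 6.18 and 7.16 there at P0 and 9.33 at E14, and the adult BCOR folds were 10.4 and 10.7. In 4 of these 5 sites both P0 folds exceeded the E14 fold, but depth and control of the libraries are unknown, so these folds are set side by side without a comparison of binding.

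The best-ranked lost peaks were shared with Otx2 at E14. The peak chr12:3109872-3110120 had no BCOR peak at P0 and a BCOR fold of 43.8 at E14, where Otx2 had 46.5, and Otx2 had no peak there at P0. Likewise chr6:103599044-103599286 was listed at 46.4 for BCOR and 50.1 for Otx2 at E14 and in neither protein's P0 lists. At chr4:64158768-64159096 the E14 folds were 37.8 for BCOR and 33.3 for Otx2, at chr15:74915938-74917466 they were 13.3 and 13.6, and at chr18:90771579-90772017 they were 24.5 and 30.7. None of these 5 peaks had a P0 peak of BCOR or Otx2. The last one was listed again in adult BCOR replicate 2 at a fold of 1.64 and in both adult Otx2 lists at 1.59 and 1.88.

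Outside the set with extreme q-values, the 5 best-ranked lost peaks, picked after the values had been seen, also had Otx2 at E14, and 3 of them had Otx2 in both P0 replicates. At chr9:56071418-56071755 Otx2 had 7.94 and 9.91 at P0 and 22.6 at E14, where BCOR had no P0 peak and 23.6 at E14. At chr16:17222365-17222605 Otx2 had 5.87 and 5.16 at P0 and 25.2 at E14, with BCOR at 23.8 at E14. At chr6:145881280-145881537 Otx2 had 3.50 and 3.87 at P0 and 19.99 at E14, with BCOR at 20.4 at E14. At birth these 3 sites were thus listed for Otx2 and not for BCOR. The other 2, chr11:53953557-53954167 and chr2:181652069-181652839, had BCOR at 19.5 and 12.9 and Otx2 at 17.3 and 10.2 at E14, and no P0 peak of either protein.

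The 5 best-ranked lost peaks with no Otx2 peak at either stage ranked below the lost peaks named above. They were picked after the values had been seen. The strongest by rank, chr11:3003937-3004200, had a BCOR fold of 8.55 at E14 and rank 560, and chr17:57995378-57995627 had 11.9 and rank 656. The next were chr19:61275452-61275728 with a fold of 10.1, chr6:47707831-47708082 with 5.14 and chr7:31502417-31502717 with 9.21. These peaks stood only in the E14 BCOR list, and none of the 10 lists gives a second measurement of them.

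Gained regions were led by sites of moderate rank. The best of them, chr15:85500324-85502714, had a BCOR fold of 14 and 21.5 in P0 replicates 1 and 2 (ranks 371 and 366), no E14 peak and no Otx2 peak in any list. The regions chr8:94881047-94882317 (folds 8.45 and 13.3 at P0) and chr6:124695524-124695944 (7.14 and 13.6) had Otx2 peaks in both P0 replicates and none at E14, at Otx2 folds of 6.11 and 7.45 and of 4.51 and 5.31. At chr7:86670610-86671068 BCOR had 7.97 and 14 at P0 and Otx2 had 19.8 and 21.1, again with no E14 peak of either protein. The region chr15:102576859-102577863 had BCOR at 8.27 and 12.4 and Otx2 at 3.65 and 3.77 at P0. So 4 of these 5 regions carried Otx2 in both P0 replicates and none carried Otx2 at E14. Over all 593 gained regions, 46.0% held an Otx2 P0 region and 21.4% an Otx2 E14 peak. In the best P0 quintile 8 of 11 gained regions held an Otx2 P0 region, so these 5 do not stand for the class.

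Some gained regions went on to be listed in the adult. The best-ranked of the 13 was chr5:36235689-36236272, with BCOR at 13.7 and 14.9 at P0 and no E14 peak. In the adult replicates BCOR had 6.42 and 8.41. Otx2 was listed there at 20.7 and 21.3 at P0 and 6.38 at E14. The second, chr13:59658512-59658873, had BCOR at 9.45 and 12.6 at P0 and at 5.66 and 11.9 in the adult, with Otx2 in P0 replicate 2 alone at that stage (4.36) and in both adult lists at 7.13 and 20.2. These regions were picked after their values had been seen.

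Lost and gained sites were spread over the genome. Lost shares of E14 peaks ranged over chromosomes between 31.4% (chromosome 11) and 43.6% (chromosome 3). Kept shares lay between 30.8% (chromosome 16) and 42.1% (chromosome 19), and gained shares of P0 regions between 10.1% (chromosome 8) and 19% (chromosome 15). Of the windows of 1 Mb that held a lost peak, 683 of 1715 held a single one and 162 held 5 or more; of those with a gained region, 327 of 435 held a single one and 3 held 5 or more. The windows with most lost peaks were neighbours, chr5:15000001-16000000 with 24 lost of 25 E14 peaks and chr5:14000001-15000000 with 13 of 14, and neither held a P0 region. The lost peaks in them had low folds, with medians of 3.23 and 2.99, and 12 of the 24 and 7 of the 13 had an Otx2 E14 peak, while 1 and 0 had an Otx2 P0 region. Next came 6 windows with 11 lost peaks each, of which chr2:30000001-31000000 also held 6 kept ones.

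Kept sites were densest in chr10:79000001-80000000, with 26 kept of 35 E14 peaks, and in the window beside it, chr10:80000001-81000000, with 24 of 36. Of the 27 and 24 P0 regions there, 25 and 20 carried Otx2 at P0. The third window, chr9:3000001-4000000, includes the chromosome 9 stretch described above and held 19 kept of 23 E14 peaks. Gained regions were most frequent in chr7:86000001-87000000, with 6 of 11 P0 regions, in chr15:102000001-103000000, with 6 of 14, and in chr19:59000001-60000000, with 5 of 8. In the first and second of these windows 3 of the 6 gained regions carried Otx2 at P0, and in the last 1 of 5 did.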

How the data were processed

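CUT&RUN of BCOR and Otx2 in CD1 mouse retina was used as deposited. The authors called MACS2 peaks for each library, per the labels. Bowtie2 stands in the submitters' processing notes too, without version. The deposited lists hold, for each peak, a score, a fold (ratio over background at the summit), −log10 p and −log10 q values and the summit. Control, threshold and read depth are not given in the sources used here. Chromosome names and peak ends fit mm9; no mm9 genome or annotation was used here, so genes, gene lists and sequences are not analysed. Samples were grouped by title. Peaks were ranked within a list by q-value, then fold, p and position, and overlap meant at least 1 shared base. Shares carry 95% Wilson intervals (scipy 1.17.1, Python 3.11.15); no significance test was possible with 1 E14 library. Overlap code was tested on simulated peaks. Named by rule were the 5 best-ranked kept (worst rank over the lists), lost and gained sites and the 3 fullest windows of 1 Mb each; other sites are said to be picked later. Alternatives covered q-value limits of 0.05 and 0.01, overlap rules, chromosome X, single replicates and equal numbers of peaks; leaving out extreme peaks and the top 1000 by fold were added after seeing the data. The members and lists were chosen with earlier results of these data known.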

Additional observations from a re-analysis of the deposited data

Results flagged for a closer look

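Peaks outside chromosomes 1 to 19 were not part of the comparison. On chromosome X there were 99 peaks in BCOR P0 replicate 1, 147 in BCOR P0 replicate 2 and 238 in the BCOR E14 list, and they are given here because data left out of the comparison hold signal. On chromosome Y, the mitochondrial genome and unplaced sequences there were 19, 43 and 149 peaks in the same lists, or 0.351, 0.479 and 1.34% of each list. No control library was used here against which these numbers could be set.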

How the results depend on the processing

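Kept, lost and gained shares moved most with the choice of P0 lists: leaving out 1 P0 replicate gave 39.9 to 60.4% kept, 39.6 to 60.1% lost and 18.5 to 26.5% gained, because a single list holds more peaks than the shared regions or fewer peaks than both lists. With equally many top-ranked peaks the shares were 25.3% gained, 54.3% kept and 26.2% lost. With windows of 200 bases at the summits, 17.3% were gained, 33.1% kept and 42.6% lost; equally many top peaks then shared 56.4 and 62.2% for P0 replicates 1 and 2 in E14 and 67.9% between the P0 replicates; and Otx2 lay on 42.0% of gained and 66.3% of kept P0 regions and on 67.7% of kept and 25.2% of lost E14 peaks. Counting sites within 500 bases as shared gave 11.7% gained, 39.2% kept and 35.9% lost, overlap of 50% of the shorter peak gave 39.4% lost, and a q-value limit of 0.01 gave 36.0% lost and 32.1% of lost peaks with Otx2 at E14. For equally many peaks, ranking by fold gave 58.9, 58.4 and 71.4% (P0 replicate 1 in E14, P0 replicate 2 in E14, and between P0 replicates), the top 1000 by q-value 53.9, 57.6 and 77.9%, the top 1000 by fold 33.7, 36.8 and 71.2%, and the top 2000 by q-value 58.0 and 62.8% for the P0 replicates in E14; the top 3000 gave 64.9% for P0 replicate 2. Without 1 Otx2 P0 replicate, 48.7 to 53.3% of gained and 73.7 to 77.1% of kept P0 regions had Otx2 at P0. Of the 63 alternatives that could move a share, the other 23 left it within its 95% interval. No paired analysis was possible because E14 has 1 library and the shares come from no test. Unknown read depth and 1 library at E14 limit every comparison of stages.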
